A study of Arabidopsis thaliana with 12 samples.

Results

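The genes described here are 10 small heat shock protein loci of Arabidopsis thaliana, taken by locus number from a list of names: HSP17.4 (AT3G46230), HSP17.6C (AT1G53540), HSP17.6B (AT2G29500), HSP18.2 (AT5G59720), HSP17.6II (AT5G12020), HSP17.6A (AT5G12030), HSP21 (AT4G27670), HSP22 (AT4G10250), HSP23.5 (AT5G51440) and HSP23.6 (AT4G25200). All 10 were among the 26782 genes or unnamed probes that were bright enough to test, of which 20905 were named genes, and each was read by 1 probe. Whole seedlings of wild-type Col-0 and of a transformant carrying SvGRP, which encodes an RNA-binding protein of the glycine-rich type from the grass Sporobolus virginicus, were compared on 1-colour Agilent microarrays. Both genotypes germinated on half-strength MS medium for 5 days, were moved to medium with 0 or 150 mM NaCl, and were collected 24 h later at an age of 6 days. The 4 groups were therefore wild type without salt, wild type with salt, SvGRP without salt and SvGRP with salt, with 3 arrays each. The promoter that drives SvGRP and the number of transformant lines are not given in the sources used here, and the transgene itself was not analysed here. The labels do not say that the 3 samples of a group were grown separately, so p-values measure the spread between these samples only.

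Small heat shock proteins share an alpha-crystallin domain and assemble into oligomers that hold unfolding proteins in a soluble state without using ATP, from which the HSP70 and HSP101 chaperones refold them. Plants make separate classes for the cytosol, plastid, endoplasmic reticulum and mitochondrion. In vegetative tissue most of these genes are close to silent until heat or another stress activates heat shock transcription factors, and several are also active in maturing seeds.

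Signals are given as a percentage of the 75th percentile of the same array, which stood at 3641 to 5676 scanner units over the 12 arrays, and differences are on the log2 scale with the standard error (SE) from limma's fit over all 12 arrays. A gene was called where the Benjamini-Hochberg adjusted p over all 26782 was below 0.05. Correlations between arrays of 1 group ran from 0.990 to 0.997, and the first principal component, which separated the NaCl levels, held 68.6% of the variance. The arrays lay on 3 slides of 4, as the array barcodes give them, and at neither NaCl level did the 2 genotypes share a slide. The second slide (wild type with salt, replicates 2 and 3, and SvGRP without salt, replicates 1 and 2) stood apart on the third component (7.49% of the variance), at -36.1 to -28.1 against -4.91 to 31.0 for the other arrays. Results are therefore also given with slide as a term in the fit and with the second slide left out. Green shoot and root marker genes (5 of each) were measured in all 4 groups, which are labelled as whole plants. In these mixed tissues, fewer cells of a type and less RNA per cell cannot be told apart.

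**Figure D1:**
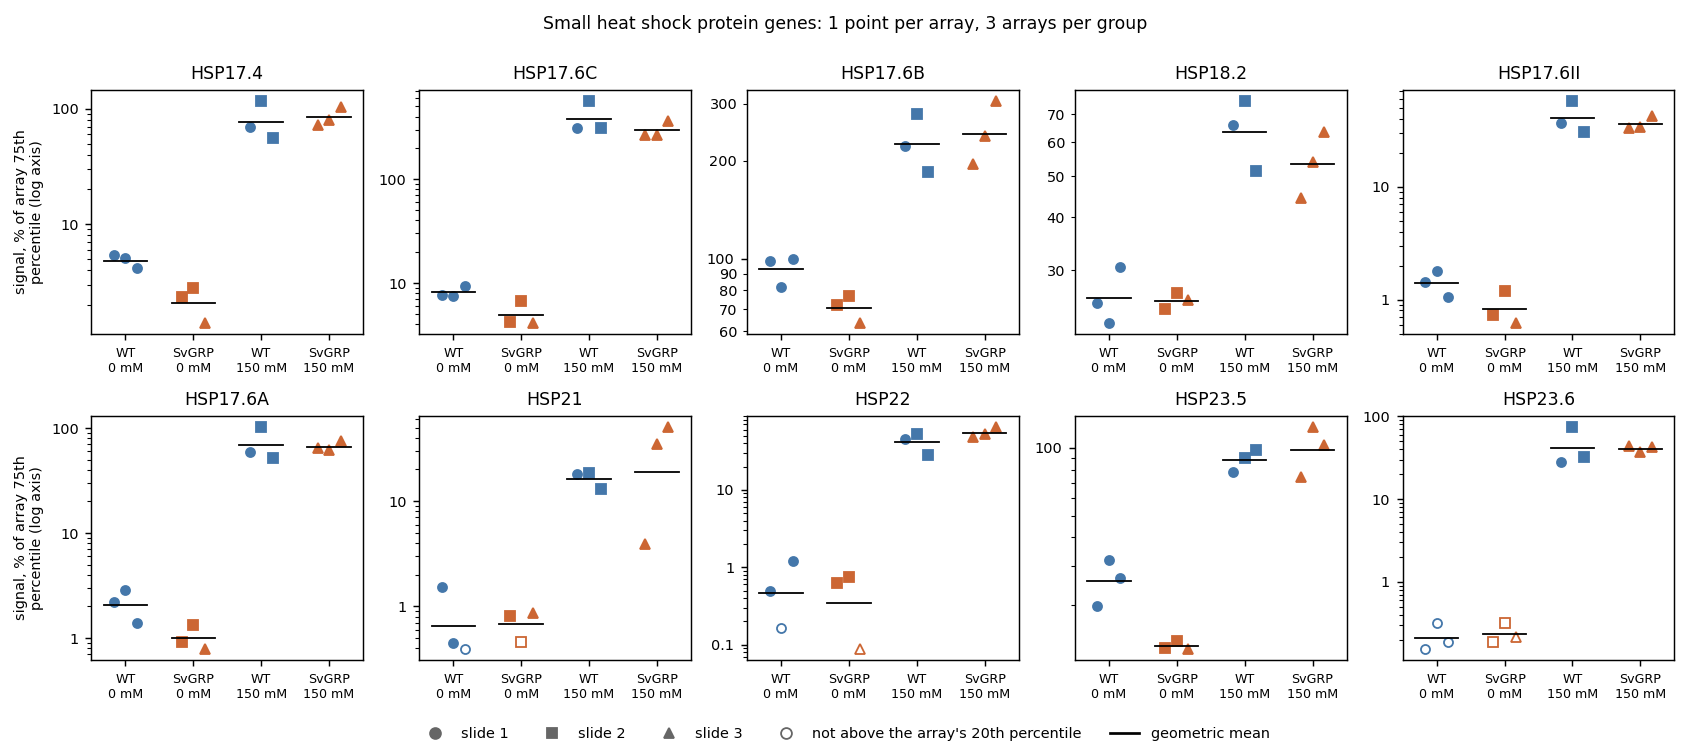
Signal of each of the 10 small heat shock protein genes on every array, as a percentage of the array's 75th percentile on a log axis, by genotype (WT, wild type) and NaCl level, with 3 arrays per group. Marker shapes give the slide, open markers are signals not above the array's 20th percentile, and lines are geometric means. All salt arrays lie above all arrays without salt of the same genotype for every gene, and the 2 genotypes overlap with salt.

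Salt raised all 10 genes in both genotypes, each by at least 2-fold, and for every gene the 3 salt arrays lay above the 3 arrays without salt. In wild type 10 of 10 were called higher, where 33.1% of all genes tested were called higher and 8.67% were called higher with a change of at least 2-fold. In SvGRP 10 of 10 were called as well, beside backgrounds of 31% and 9.14%. HSP21, HSP22 and HSP23.6 were bright enough to test through their salt arrays alone, since each had dimmer readings without salt in both genotypes. A clear salt signal was thus a condition for testing these genes, and their calls are not independent of it. The other members were above the 20th percentile on every array. Non-overlapping groups with the salt arrays higher were found for 36% of all genes in wild type and 33.6% in SvGRP. The median change of the 10 genes was 4.75 in wild type and 5.40 in SvGRP, where the median over all genes was 0.04 and -0.07. The genes differed widely in size of change: 7 of them rose by 3.99 or more in wild type, while HSP17.6B, HSP18.2 and HSP23.5 rose by 1.27 to 1.78.

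Among the cytosolic class I genes, HSP17.6C had the largest change. Its probe read 7.71, 7.55 and 9.36% in wild type without salt and 309.6, 568 and 309 with salt. The SvGRP arrays read 4.26, 6.71 and 4.13% without salt and 268, 266 and 364 with it. The salt arrays of both genotypes thus stood above the 75th percentile and the arrays without salt far below it, with no overlap. The change was 5.54 ± 0.27 (46.4-fold, adjusted p = 6.51e-07) in wild type and 5.92 ± 0.27 (60.3-fold, adjusted p = 2.2e-07) in SvGRP.

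HSP17.4, of the same class, read 5.44, 5.05 and 4.14% in wild type without salt and 70.1, 117 and 55.7 with salt. In SvGRP the readings were 2.35, 2.81 and 1.39% without salt and 72.6, 80.7 and 104 with it. The SvGRP arrays without salt were the lowest of the 4 groups, and the salt arrays of the 2 genotypes overlapped. Salt changed HSP17.4 by 3.99 ± 0.31 in wild type (15.9-fold, adjusted p = 5.61e-06) and by 5.34 ± 0.31 in SvGRP (40.5-fold, adjusted p = 7.37e-07).

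HSP17.6B and HSP18.2, the other 2 class I genes, already gave a clear signal without salt and changed least. HSP17.6B went from 98.6, 82.2 and 99.7% to 222, 279 and 184 in wild type. Its SvGRP arrays went from 72.1, 76.9 and 63.5% to 196, 239 and 306. HSP17.6B thus stood near the 75th percentile before salt, and its groups did not overlap. The rise was 1.27 ± 0.18 in wild type (2.42-fold, adjusted p = 2.12e-04) and 1.78 ± 0.18 in SvGRP (3.44-fold, adjusted p = 1.74e-05). For HSP18.2, a gene whose promoter is a common heat-inducible tool in plants, the wild-type arrays read 25.1, 22.5 and 30.5% without salt and 65.9, 75.2 and 51.3 with salt. The SvGRP arrays of HSP18.2 read 24.3, 26.5 and 25.6% without salt and 44.3, 54.1 and 63.5 with it. Levels without salt were alike in the 2 genotypes, and the salt arrays were all higher. HSP18.2 rose by 1.29 ± 0.17 in wild type (2.45-fold, adjusted p = 1.13e-04) and by 1.07 ± 0.17 in SvGRP (2.10-fold, adjusted p = 2.97e-04).

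HSP17.6II and HSP17.6A encode the cytosolic class II proteins and are neighbouring genes on chromosome 5. HSP17.6II read 1.42, 1.79 and 1.06% in wild type without salt and 36.6, 57.9 and 30.8 with salt. In SvGRP it read 0.736, 1.19 and 0.620% without salt and 32.8, 33.6 and 42.2 with salt. The gene was dim in both genotypes without salt, and the salt groups overlapped each other but not the arrays without salt. The changes were 4.85 ± 0.30 (28.9-fold, adjusted p = 2e-06) and 5.46 ± 0.30 (44.0-fold, adjusted p = 5.65e-07).

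HSP17.6A read 2.21, 2.89 and 1.38% in wild type without salt and 59.4, 103 and 52.1 with salt. The 3 SvGRP arrays without salt read 0.926, 1.34 and 0.789% and those with salt 64.2, 61.2 and 75. As for its neighbour, replicate 2 was the highest wild-type array at each NaCl level. Its changes were 5.05 ± 0.32 in wild type (33.1-fold, adjusted p = 2.23e-06) and 6.07 ± 0.32 in SvGRP (67.0-fold, adjusted p = 4.72e-07).

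HSP21, the plastid member, which protects photosynthetic and nucleoid complexes in heat, was the most variable. Wild-type arrays read 1.54, 0.448 and 0.395% without salt and 18.0, 18.3 and 13.1 with salt. SvGRP arrays read 0.807, 0.459 and 0.870% without salt and 3.92, 34.97 and 51.1 with salt. Replicate 1 of SvGRP with salt was far below the other arrays of its group, though still above every array without salt, and 1 array without salt in each genotype was not above the 20th percentile of its array. The change was 4.65 ± 0.87 in wild type (25.1-fold, adjusted p = 0.00106) and 4.80 ± 0.87 in SvGRP (27.9-fold, adjusted p = 7.18e-04). Leaving out replicate 1 of wild type without salt gave 5.27 for wild type. Leaving out replicate 1 or 3 of SvGRP with salt gave 5.95 and 4.09 for SvGRP.

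HSP22, which enters the endoplasmic reticulum, read 0.490, 0.164 and 1.22% in wild type without salt and 45.7, 53.0 and 28.6 with salt. Its SvGRP arrays read 0.636, 0.748 and 0.0884% without salt and 48.3, 52.2 and 65.7 with salt. The lowest array without salt in each genotype was not above the 20th percentile, and the arrays with salt agreed far more closely than those without. HSP22 rose by 6.48 ± 0.85 in wild type (89.1-fold, adjusted p = 1.2e-04) and by 7.30 ± 0.85 in SvGRP (158-fold, adjusted p = 3.92e-05). The wild-type value was 5.73 without replicate 2 and 7.18 without replicate 3 of the arrays lacking salt, and the SvGRP value was 6.31 without replicate 3 of the arrays lacking salt.

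The 2 mitochondrial genes behaved unequally. HSP23.6 was not above the 20th percentile on any of the 6 arrays without salt, where its readings ran from 0.155 to 0.320%. With salt it read 28.4, 75.1 and 32.3% in wild type and 43.5, 36.9 and 42.2% in SvGRP. The gene thus went from the floor of the arrays to a moderate signal in both genotypes. The measured difference was 7.60 ± 0.38 (adjusted p = 8.1e-07) in wild type and 7.45 ± 0.38 (adjusted p = 4e-07) in SvGRP, and against the 20th percentile of the arrays without salt the rise was at least 106.2-fold and at least 86.2-fold.

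HSP23.5 read 19.95, 31.9 and 26.4% in wild type without salt and 77.8, 89.9 and 97.3 with salt. Its readings in SvGRP were 12.9, 13.9 and 12.8% without salt and 73.8, 124 and 103 with salt. The SvGRP arrays without salt were close together and all below the wild-type arrays, whereas the salt groups overlapped. HSP23.5 rose by 1.78 ± 0.20 in wild type (3.43-fold, adjusted p = 4.83e-05) and by 2.89 ± 0.20 in SvGRP (7.42-fold, adjusted p = 1.7e-06).

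With slide in the fit all 10 genes were called higher in both genotypes (22.5% and 25.3% of all genes were called higher there). The rises were 1.25 to 6.63 in wild type and 1.06 to 6.40 in SvGRP. These ranges cover genes above the 20th percentile on at least 1 array without salt of the slide used. The 6.63 is HSP22, for which replicate 2 of wild type without salt was not above it. All these rises are also the differences within a slide. The wild-type value then rests on the first slide and replicate 1 with salt. The SvGRP value rests on the third slide and replicate 3 without salt. HSP17.4 in SvGRP moved from 5.34 to 5.93. HSP22 in SvGRP then rests on that 1 array without salt, which was not above the 20th percentile, so that its 9.28 is read as a rise of at least 134.7-fold. For HSP23.6 the rise within a slide was at least 73.5-fold in wild type (1 array with salt against 3 without). In SvGRP it was at least 100-fold (3 arrays with salt against 1 without). Leaving out the second slide gave the same differences as the slide term in both salt comparisons, and 9 of the 10 genes were called in each. Wild type with salt and SvGRP without salt then hold 1 array each, which is assumed to vary like the arrays of the other groups. The exception was HSP21, at 4.80 (adjusted p = 0.0562) in wild type and 4.46 (adjusted p = 0.0585) in SvGRP.

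**Figure D2:**
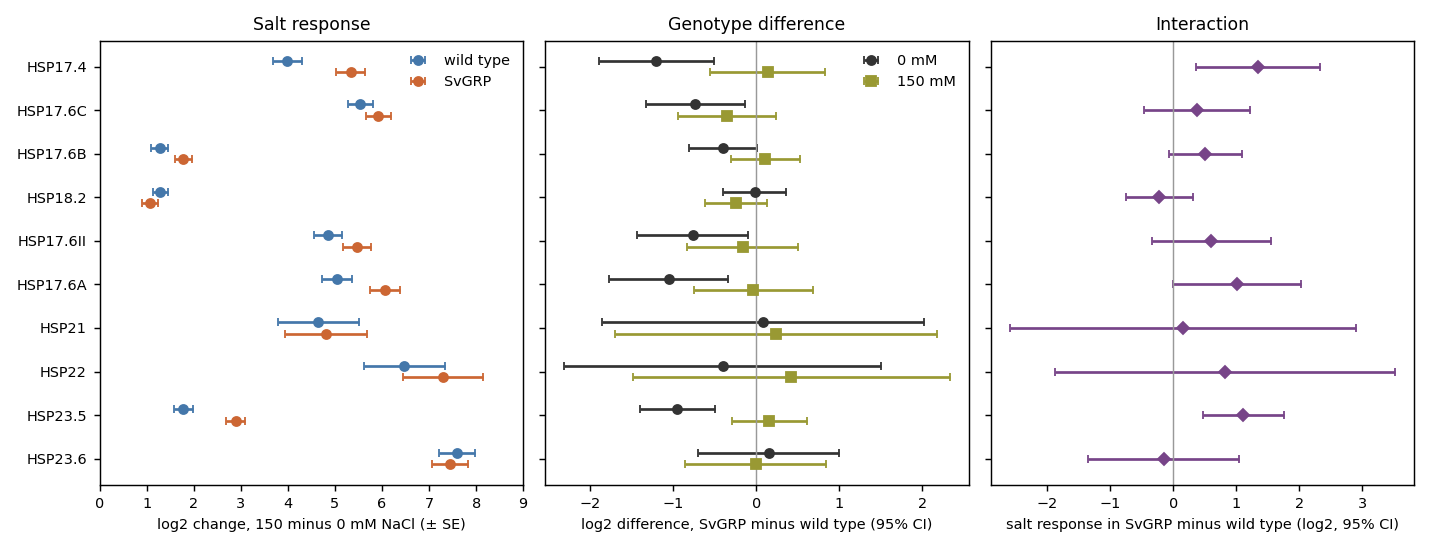
Log2 differences of the 10 genes. Left, change with salt in each genotype with SE; middle, SvGRP minus wild type at each NaCl level with 95% confidence intervals; right, change with salt in SvGRP minus that in wild type with 95% confidence intervals. At 0 mM the points of HSP17.4, HSP17.6A and HSP23.5 lie at -1.21, -1.06 and -0.95, while all intervals at 150 mM include 0. HSP23.6 was not above the 20th percentile without salt, so its values that use those arrays are differences from the floor.

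Without salt, 3 of the 10 genes were lower in SvGRP than in wild type and none was higher, where 10.8% of all genes were called lower and 10.4% higher. They were HSP17.4 at -1.21 ± 0.31 (adjusted p = 0.023), HSP17.6A at -1.06 ± 0.32 (adjusted p = 0.0434) and HSP23.5 at -0.95 ± 0.20 (adjusted p = 0.0105). The median of the 10 differences was -0.57, against 0.03 over all genes. For 5 genes, these 3 with HSP17.6C and HSP17.6B, all SvGRP arrays lay below all wild-type arrays, a pattern found for 22.9% of all genes.

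The remaining 7 genes did not pass. HSP17.6II differed by -0.77 (adjusted p = 0.0956), HSP17.6C by -0.74 (adjusted p = 0.076) and HSP17.6B by -0.40 (adjusted p = 0.15). Both class II genes therefore had a difference of the same sign, although the wild-type and SvGRP arrays of HSP17.6II overlapped. HSP18.2 differed by -0.02 with a 95% confidence interval of -0.40 to 0.35. HSP21 (0.08, -1.86 to 2.02) and HSP22 (-0.41, -2.31 to 1.502) had intervals that span more than 2-fold in both directions. HSP23.6 was not above the 20th percentile in either genotype, so no fold is given.

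These 3 calls did not hold in every fit. Slide as a term in the fit gave differences of -1.12, -1.19 and -1.20 for HSP17.4, HSP17.6A and HSP23.5, with adjusted p of 0.369, 0.438 and 0.228. Thus 0 of the 10 were called, beside 0.62% of all genes called lower. An unadjusted p below 0.05 was found for 1 of the 10 and for 3797 of all 26782 genes. No slide held both genotypes without salt, so no difference within a slide exists. With the second slide left out, SvGRP without salt holds 1 array, whose spread is taken from the other groups, and HSP17.4 was called at -1.80 (adjusted p = 0.0317), HSP17.6A gave -1.39 (adjusted p = 0.15) and HSP23.5 gave -0.996 (adjusted p = 0.225). HSP23.5 was called whichever of the 12 arrays was left out, HSP17.4 in 8 of the 12 fits and HSP17.6A in 4, with adjusted p up to 0.0708 and 0.134. Only 1 gene was called without replicate 1 or 2 of wild type, or replicate 1 or 3 of SvGRP, among the arrays lacking salt, and 5 were called without replicate 2 of SvGRP.

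With salt, no gene of the 10 was called different between the genotypes, where 10.2% of all genes were called higher in SvGRP and 18.6% lower. The arrays of the 2 genotypes overlapped for all 10 genes, while SvGRP lay wholly above wild type for 15.7% of all genes and wholly below for 24.5%. Differences ran from -0.36 for HSP17.6C to 0.42 for HSP22, with a median of 0.05. The 95% confidence intervals bound the difference most tightly for HSP18.2 (-0.63 to 0.13), HSP17.6B (-0.30 to 0.52) and HSP23.5 (-0.30 to 0.61). HSP17.4 (-0.56 to 0.83), HSP17.6C (-0.95 to 0.24), HSP17.6II (-0.83 to 0.51) and HSP17.6A (-0.76 to 0.68) were bounded to less than 2-fold either way, as was HSP23.6 (-0.86 to 0.84). These intervals come from the fit without slide, and no slide held both genotypes with salt. With slide in the fit HSP17.4 gave 0.95 ± 0.50, HSP17.6II 0.37 ± 0.56, HSP17.6A 0.36 ± 0.62 and HSP23.6 -0.10 ± 0.70. Differences of 2-fold are within reach of those errors, so the tight bounds hold only without the slide term. The intervals of HSP21 (-1.71 to 2.18) and HSP22 (-1.49 to 2.33) left room for a 4-fold higher level in SvGRP. By limma, 0 of the 10 passed at an unadjusted p below 0.05 as well, against 11181 of all 26782 genes. With slide in the fit 4170 of all genes did so and 1 of the 10, HSP22 at 3.46 (adjusted p = 0.218). That estimate links the slides through SvGRP without salt, where HSP22 on replicate 3 was not above the 20th percentile, and is not a measured size.

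Whether the change with salt differed between the genotypes was tested as the interaction. HSP23.5 was the 1 gene called, its rise being larger in SvGRP by 1.11 ± 0.29 (95% confidence interval 0.47 to 1.75, adjusted p = 0.0423), where 2.52% of all genes were called higher and 6.45% lower. As its arrays show, the genotypes stood apart without salt and overlapped with salt. HSP17.4 had a larger estimate, 1.35 ± 0.44, that did not pass (adjusted p = 0.0834), and HSP17.6A gave 1.02 ± 0.45 (adjusted p = 0.179). The remaining estimates were -0.22 for HSP18.2, 0.15 for HSP21, 0.38 for HSP17.6C, 0.51 for HSP17.6B, 0.61 for HSP17.6II and 0.83 for HSP22, so that 8 of these 9 were above 0 and 1 was called. HSP23.6 was below the 20th percentile without salt in both genotypes, so no difference in its rise is read. The call of HSP23.5 was lost with slide in the fit (1.33, adjusted p = 0.266, 0.198% of all genes called higher) and with the second slide left out (1.33, adjusted p = 0.468). It held in 2 of the 12 fits that leave out 1 array, those without replicate 1 of wild type lacking salt (adjusted p = 0.0297) and without replicate 1 of SvGRP with salt (adjusted p = 0.0144), and in the other 10 adjusted p reached up to 0.0944.

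**Figure D3:**
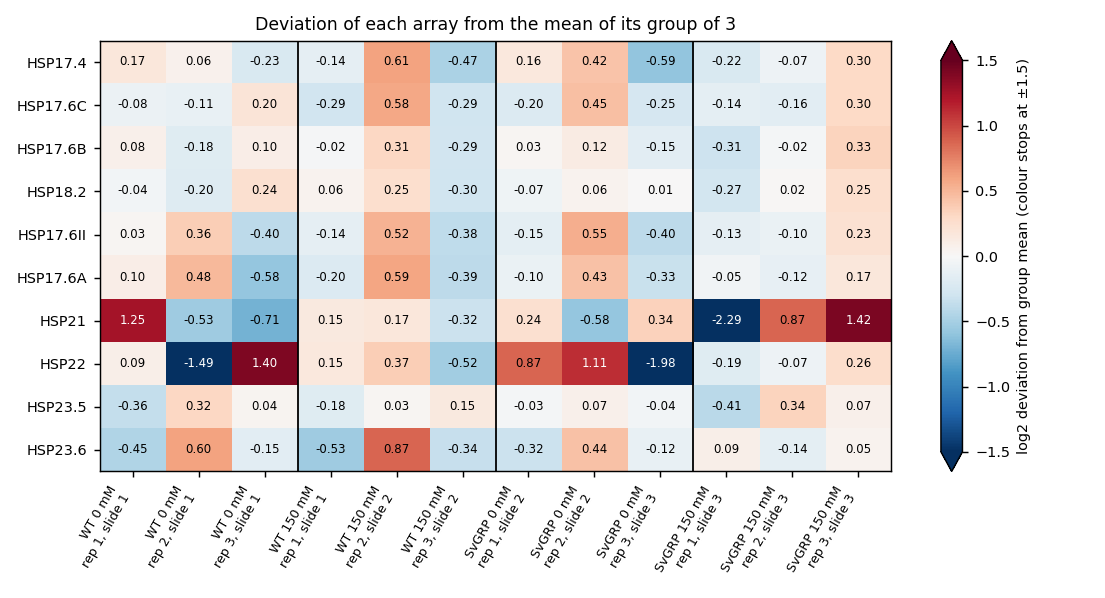
Deviation of each array from the mean of its group of 3, on the log2 scale, for the 10 genes; columns are arrays in group order with replicate (rep) and slide. Replicate 2 of wild type with salt is above its group mean for all 10 genes, and HSP21 and HSP22 hold the cells beyond 1 in size.

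Within groups the genes tended to be high or low on the same arrays. Replicate 2 of wild type with salt was the highest array of its group for 9 of the 10 genes, where 29.4% of all genes were highest on that array. Replicate 3 of that group was the lowest for 8 (30.5% of all genes). In SvGRP without salt replicate 2 was the highest for 9 (34.9% of all genes), among them HSP23.6, which was not above the 20th percentile there. Replicate 3 of that group was the lowest for 7 (41.1%). In SvGRP with salt replicate 3 was the highest for 8 (34.7%) and replicate 1 the lowest for 7 (32.1%). Wild type without salt had no such array. Over the 12 arrays, deviations from the group means had a median Pearson r of 0.41 over the 45 pairs of genes, with 40 pairs above 0. The neighbours HSP17.6A and HSP17.6II gave the highest value, 0.97, and HSP21 with HSP23.6 the lowest, -0.25. These deviations include readings not above the 20th percentile, on 6 arrays for HSP23.6 and on 2 each for HSP21 and HSP22. No r over pairs of all genes is given here for comparison. Each array carries 1 RNA sample, 1 labelling and 1 scaling, all of which the 10 genes share, and probe sequences of related genes were not compared here.

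The family has 9 further loci on the list used here, which have no gene name in the annotation used. Of these, 6 were called higher and 1 lower with salt in wild type, and 7 higher and 2 lower in SvGRP, with medians of 1.14 and 1.26. Of all genes, 33.1% and 31% were called higher and 30.2% and 37.8% lower. AT1G07400 rose most, from 24.2, 19.1 and 18.8% to 328, 424 and 327 in wild type, and from 12.6, 15.0 and 12.8% to 361, 313 and 427 in SvGRP. All its salt arrays were above the 75th percentile, and the changes were 4.12 ± 0.15 and 4.76 ± 0.15. AT1G52560 rose by 3.73 ± 0.35 and 3.69 ± 0.35. AT1G59860 (1.14 and 1.26), AT1G54050 (1.32 and 1.70) and AT5G37670 (1.24 and 1.75) rose in both genotypes by less than 4-fold. AT4G21870 fell, with a change of -0.54 in wild type, not called with slide in the fit, and -1.23 in SvGRP, and AT5G54660 was called lower in SvGRP at -0.32. AT2G19310 rose by 0.33 and 0.89, and AT5G47600 rose in SvGRP by 0.67. Without salt 3 of the 9 were lower in SvGRP (10.8% of all genes), AT1G07400 (-0.61), AT2G19310 (-0.60) and AT5G47600 (-0.999). With salt AT5G54660 (-0.36) and AT5G47600 (-0.70) were lower (18.6% of all genes), and AT2G19310 was called in the interaction (0.56, adjusted p = 0.0335). With slide in the fit AT5G47600 without salt (-1.54, adjusted p = 0.032) was the 1 genotype or interaction call left among these 9.

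**Figure D4:**
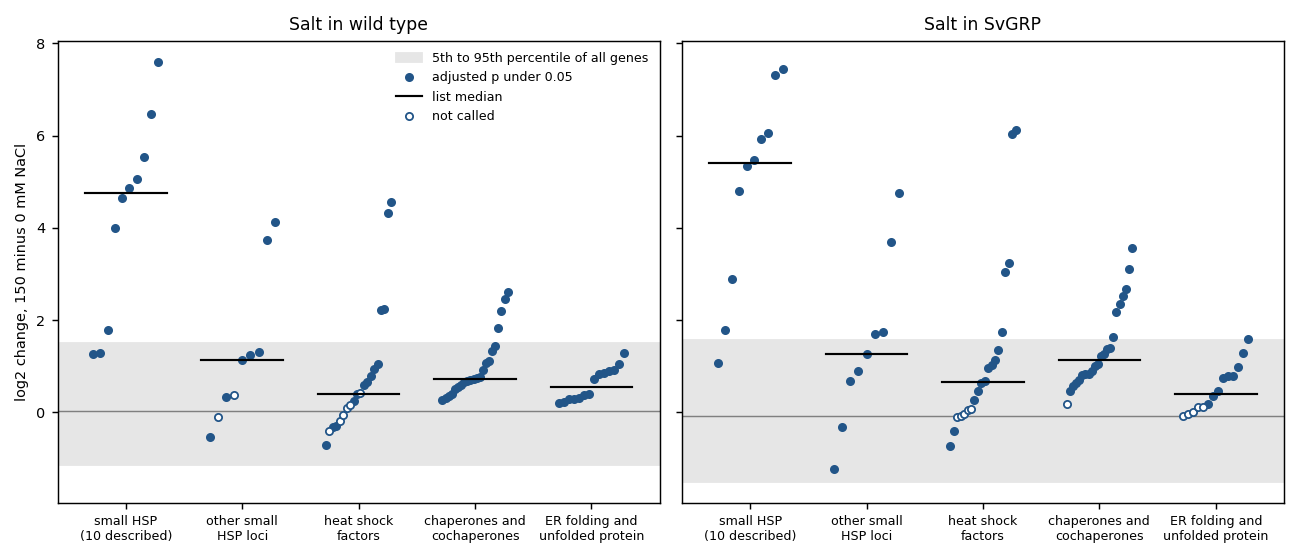
Change with salt (log2, 150 minus 0 mM NaCl) of the 10 genes, of 9 further small heat shock protein loci and of 3 lists of related genes, in wild type (left) and SvGRP (right). Each point is a gene, filled where called, bars are list medians, and the band spans the 5th to 95th percentile of all genes. Of the 10 genes, 8 lie above the band in wild type and 9 in SvGRP, and in both panels the chaperone and endoplasmic reticulum lists lie mostly inside it.

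Some heat shock factors bind the promoters of these genes and switch them on, and the list counted here was not restricted to such activators. Of 20 factor genes tested, 11 were called higher and 3 lower with salt in wild type and 13 higher and 2 lower in SvGRP, with 9, 3, 11 and 2 when slide was in the fit. The shares of all genes called higher and lower are those given for the 9 loci, and with slide in the fit 22.5% and 25.3% were called higher. HSFA2, a heat-inducible factor that prolongs the expression of small heat shock proteins, read 5.14, 6.41 and 6.11% without salt and 108, 203 and 123 with salt in wild type. In SvGRP HSFA2 read 2.42, 3.11 and 2.30% without salt and 166, 143 and 210 with salt. Like HSP17.4 and HSP23.5, it was lowest in SvGRP without salt and overlapped between genotypes with salt. HSFA2 changed by 4.57 ± 0.23 in wild type and 6.04 ± 0.23 in SvGRP, was lower in SvGRP without salt by -1.18 (adjusted p = 0.00793), and was called in the interaction at 1.47 (adjusted p = 0.0275).

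HSFA6B rose by 4.32 and 6.11 and HSFA7B, also called in the interaction (1.04, adjusted p = 0.0491), by 2.21 and 3.25. HSFA1A, a factor present before stress, changed little (0.25 and 0.26), and HSFA3, which acts downstream of DREB2A, gave 0.42 (adjusted p = 0.0628) and 0.97 (adjusted p = 8.11e-04). Without salt, HSFA8 (-1.53), HSFA2 and HSFA3 (-1.04) were called lower in SvGRP by at least 2-fold. DREB2A, a drought and heat factor, rose by 2.61 and 3.80 and was called in the interaction (1.195, adjusted p = 0.0478). With slide in the fit HSFA8 was still called lower without salt (-1.39, adjusted p = 0.0129), while HSFA2 gave -1.64 (adjusted p = 0.124) and an interaction of 2.01 (adjusted p = 0.115). Also not called then were HSFA3 without salt (-1.21, adjusted p = 0.188) and the interactions of HSFA7B (1.64, adjusted p = 0.0911) and DREB2A (1.60, adjusted p = 0.209).

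The chaperones that work with small heat shock proteins rose by less in the median, though HSP70 and HSP101 rose by more than HSP17.6B and HSP18.2. Of 22 chaperone and cochaperone genes, all 22 were called higher with salt in wild type and 21 in SvGRP, with medians of 0.73 and 1.14. Of all genes, 33.1% and 31% were called higher. HSP101, the disaggregase that releases clients from small heat shock proteins, rose by 1.84 and 2.53. HSP70 (AT3G12580) rose by 2.20 and 3.57, HSP70B by 2.61 and 2.18, the immunophilin ROF2 by 2.45 and 3.11, and the coactivator MBF1C by 0.74 and 1.62. HSP90.1 rose by 1.32 and 2.66, was lower in SvGRP without salt by -1.31, and was called in the interaction (1.34, adjusted p = 0.0124), as was HSP70 (1.37, adjusted p = 0.0107). Without salt 7 of the 22 were lower in SvGRP and none was higher (10.8% and 10.4% of all genes). With salt 5 were higher and none lower (10.2% and 18.6% of all genes). With slide in the fit 19 of the 22 were called higher with salt in wild type and 21 in SvGRP (22.5% and 25.3% of all genes). None was then called in the genotype comparisons or the interaction. Unadjusted p was below 0.05 for 7 of the 22 without salt, 3 with salt and 9 in the interaction. Of all 26782 genes, 3797, 4170 and 3389 had such a value.

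HSP22 works in the endoplasmic reticulum, whose other folding genes changed far less. All 14 folding and unfolded protein response genes tested were called higher in wild type with salt and 9 in SvGRP (33.1% and 31% of all genes). Medians were 0.56 and 0.41, and 7 and 8 were called higher with slide in the fit (22.5% and 25.3% of all genes). The chaperone BIP3 (1.28 and 1.58), the transcription factor NAC103 (1.06 in wild type) and the unfolded protein response factor BZIP60 (1.28 in SvGRP) were the ones at or above 2-fold. With salt 9 of the 14 were lower in SvGRP (18.6% of all genes), while HSP22 differed by 0.42 with an interval that spans both signs. With slide in the fit none of the 14 was called between genotypes with salt. An unadjusted p below 0.05 was then found for 5 of the 14 and for 4170 of all 26782 genes.

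Markers of organs were measured beside these changes. The summed signal of 7 of 12 seed maturation and storage genes that could be tested was 8.40 to 9.77% in wild type without salt, 12.7 to 15.1 with salt, 13.6 to 19.7 in SvGRP without salt and 29.1 to 39.2 with salt. The other 5, of which 4 encode storage albumins, were too dim to test in every group. The 5 root markers summed to 8404 to 8793% and 7946 to 8722% without salt (wild type and SvGRP) and to 5642 to 5903% and 4839 to 5708% with salt. PYK10 alone read 7329 to 8024% and 7010 to 7480% without salt and 4907 to 5212% and 4583 to 5331% with salt. These sums thus mainly follow PYK10. In wild type 1 of the 5 root markers was called lower with salt (median change -0.08, range -0.60 to 0.92). In SvGRP 4 were called lower (median -1.70, range -2.23 to -0.14). Of all genes, 30.2% in wild type and 37.8% in SvGRP were called lower. With slide in the fit 1 and 3 root markers were called lower, beside 6219 and 7722 of all 26782 genes. The 5 green shoot markers summed to 59207 to 68021% in wild type without salt and 42244 to 44034 with it, and in SvGRP to 51656 to 54882 and 41585 to 46743. The 75th percentile itself was 3641 to 4226 scanner units in wild type without salt and 4946 to 5198 with it. In unscaled signal CAB1 changed least in wild type, from 543812 to 559412 without salt to 529036 to 537320 with it. LHB1B1 changed most, from 472228 to 479016 to 332742 to 393085. Saturation of these bright probes was not tested. Called lower with salt were 5 green shoot markers in wild type and 4 in SvGRP, or 5 and 1 with slide in the fit. Without salt 4 of them were called lower in SvGRP than in wild type (10.8% of all genes), and 0 with slide in the fit. Of the root markers 3 were lower in SvGRP than in wild type with salt (18.6% of all genes), among them EXPA7 (-2.64) and SHV2 (-2.48). With slide in the fit, however, 0 root markers were called between genotypes with salt. An unadjusted p below 0.05 was then found for 2 of them and for 4170 of all 26782 genes. Of the 7 seed genes 2 were called higher and 1 lower with salt in each genotype. Of all genes, 33.1% and 31% were called higher and 30.2% and 37.8% lower (wild type and SvGRP). OLEO1 rose by at least 3.52-fold in wild type, where it was below the 20th percentile without salt, and by 2.05 in SvGRP, and OLEO2 rose by 1.69 and 2.12. LEC2 was lower with salt, where it was below the 20th percentile, by at least 1.08-fold in wild type and at least 2.21-fold in SvGRP. The part of these shifts in the rise of the small heat shock protein genes was not tested.

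The 10 genes share a profile over the 12 arrays. Among 8131 tested genes outside the 10 that have a symbol other than their locus number, those closest to their mean standardised profile by Pearson r were CKS (0.9952), RHL41 (0.9951), ANNAT1 (0.9950), HSFA2 (0.9928) and CAD6 (0.9926). The sizes of change of these genes differed widely, from 0.73 for CKS to 4.57 for HSFA2 in wild type, since r does not depend on size. Because salt was the main source of variance, 14.9% of the 8131 genes had an r above 0.9.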

How the data were processed

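Per the file headers, the array files hold the gProcessedSignal intensity of Agilent Feature Extraction, 1 value for each of 43663 probes, which the authors deposited without scaling between arrays. The deposited series table of log2 values was used as an alternative; it differed by at most 0.000389 from log2 values recomputed from the intensities (minus the array's 75th percentile and the probe's median). Probes were named through the platform annotation and RefSeq: of 43603 probes that are not controls, 34344 had 1 gene and 9259 were unnamed here. The values tested here are log2 intensities from which the 75th percentile of the array was subtracted. Probes above the 20th percentile of their array on all arrays of at least 1 group were kept, with the brightest probe per gene, and limma 3.58.1 in R 4.3.3 (lmFit, eBayes) was run on all 12 arrays with 8 residual degrees of freedom. It was tested on simulated data. A bound ("at least") sets a gene that is dim on all arrays of a group at their 20th percentile. Precision is limited by having 3 arrays per group.

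The members and gene lists were chosen with earlier results of these data known. All 10 members are named, with HSFA1A, HSFA2, HSFA3, HSP101, HSP70, HSP90.1, MBF1C, DREB2A and the 9 further loci, and from each list up to 2 called genes with the largest rise and fall of at least 2-fold per comparison; HSFA7B, HSFA8, HSP70B, ROF2, BZIP60 and NAC103 come under this. AT3G12580 is the locus meant by HSP70. Alternatives were other scalings, filters, slide terms, a replicate block, a trended variance, other probes and each array left out.

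Probe and gene sequences were not used here.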

Additional observations from a re-analysis of the deposited data

Results flagged for a closer look

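The change of HSP23.5 with salt differed between the genotypes by the test of the interaction: it was larger in SvGRP by 1.11 on the log2 scale (SE 0.29, adjusted p = 0.0423 from limma). All 3 SvGRP arrays lay below all 3 wild-type arrays without salt and the groups overlapped with salt. The call was lost with slide in the fit, where the estimate was 1.33 (adjusted p = 0.266).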

How the results depend on the processing

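In both salt comparisons all 10 genes were called in every alternative that kept them, except HSP21 with the second slide left out (an alternative chosen after seeing the data); the strict filter on dim probes, which asks for signal on all 12 arrays, kept 7 genes. Leaving out each array in turn changed no call and no direction there. Of the 10 genes, the number called in SvGRP without salt was 3, against 0 with slide as a fixed term, 5 with slide as a random block and 1 with the second slide left out, and 1 to 5 when leaving out each array. In the interaction it was 1, against 0 under E1A spike-in scaling, no filter, slide as a fixed term and the second slide left out, and 0 to 1 when leaving out each array. For slide as a random block the fitted correlation within slides was -0.165. A negative value narrows the error of differences between slides, and the genotypes shared no slide at either NaCl level. The calls of that fit between genotypes are therefore no check against slide. Replicate numbers did not pair the samples (r of deviations -0.18 to 0.22). With a replicate block 10, 10, 3, 0 and 1 genes were called in the 5 comparisons, and all genes called in the interaction went from 2401 to 1215.

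Sign changes met uncalled genotype differences and interactions only. Without salt they were HSP21 under quantile normalization (-0.15), HSP17.6B, HSP18.2 and HSP22 under E1A scaling (0.012, 0.39 and 0.0052), and HSP18.2, HSP22 and HSP23.6 with slide as a fixed term (0.057, 0.81 and -0.59). With salt they were HSP23.6 under quantile normalization (0.019), HSP17.6A and HSP23.6 under median scaling (0.024 and 0.057), HSP18.2, HSP17.6II, HSP17.6A and HSP23.6 under E1A scaling (0.031, 0.12, 0.24 and 0.27), HSP17.6II, HSP17.6A and HSP21 with slide as a fixed term (0.37, 0.36 and -0.21), HSP17.4 and HSP22 with slide as a random block (-0.052 and -0.16), and HSP17.6A and HSP23.6 with the second slide left out (0.16 and 0.52). In the interaction HSP21 and HSP23.6 turned to -0.34 and 0.49 with slide as a fixed term or the second slide left out. When leaving out each array, values without salt ran from -0.12 to 0.10 for HSP18.2, -0.28 to 0.71 for HSP21, -1.15 to 0.58 for HSP22 and -0.077 to 0.45 for HSP23.6. With salt they ran from -0.10 to 0.44 for HSP17.4, -0.058 to 0.26 for HSP17.6B, -0.35 to 0.10 for HSP17.6II, -0.24 to 0.26 for HSP17.6A, -0.47 to 1.38 for HSP21, -0.013 to 0.36 for HSP23.5 and -0.27 to 0.43 for HSP23.6. Interactions ran from -0.56 to 1.30 for HSP21, -0.16 to 1.57 for HSP22 and -0.45 to 0.28 for HSP23.6. The cause of these changes was not tested, and those of HSP23.6 without salt and in the interaction are differences between readings below the 20th percentile.

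E1A scaling moved the median of all genes to 0.45 and 0.21 in the salt comparisons, 0.44 and 0.26 between genotypes without and with salt, and -0.18 in the interaction; calls with salt were then 15802 higher and 2704 lower in wild type (8862 and 8076 otherwise) and 11240 and 5181 in SvGRP (8313 and 10121). Between genotypes its split was 17995 higher and 657 lower without salt (2797 and 2886 otherwise) and 9104 and 1667 with salt (2739 and 4991), where median scaling gave 4395 and 3822 and quantile normalization 4064 and 4058; in the interaction E1A gave 193 and 1866, median scaling 1114 and 1296 and quantile normalization 933 and 1162 (674 and 1727 otherwise). All genes called without salt went from 5683 to 18652 under E1A scaling, 244 and 10264 with slide fixed and random, and 499 without the second slide, with 3123 to 6822 when leaving out each array. With salt, 7730 became 239, 11971 and 800, and 3756 when only the compared groups were fitted. Interaction calls became 138, 7383 and 10, with 851 to 3653 when leaving out each array. Without the second slide the salt calls fell from 16938 to 9649 in wild type and from 18434 to 12255 in SvGRP. With 3 arrays per group, signal near the floor limits HSP21, HSP22 and HSP23.6.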
